A study of Rattus norvegicus with 6 samples.

Results

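The genes described here encode 38 enzymes and regulators that feed the mitochondrial matrix with carbon in the rat heart. They were taken as a fixed list of gene symbols, chosen with earlier results of these data known. They fall into the citrate cycle (13 genes), the malate-aspartate shuttle (3) and the breakdown of the branched-chain amino acids leucine, isoleucine and valine (18). The others serve the use of ketone bodies (3) or encode glutamate dehydrogenase (1). Of the 38 symbols, 36 were found among 17487 symbols of the count table, and 34 were tested. The other 2 of these 36 were listed at 0, so the filter on low counts removed no member with reads. RNA had been sequenced from the hearts of 6 adult male Wistar rats, an outbred laboratory strain, with 1 library per animal. The doxorubicin group was 3 rats given 3.75 mg/kg of the anthracycline chemotherapy drug doxorubicin hydrochloride by tail vein every week for 4 weeks. The control group was 3 rats given 0.9% sodium chloride on the same schedule. The chamber of the heart, the interval after the last dose and the age beyond adult were not given in the sources used here.

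The citrate cycle oxidises acetyl-CoA, from sugars, fats, ketone bodies and amino acids alike, to carbon dioxide, and passes the electrons as NADH and FADH2 to the respiratory chain. The malate-aspartate shuttle uses paired cytosolic and mitochondrial forms of malate dehydrogenase and aspartate aminotransferase to carry the electrons of cytosolic NADH into mitochondria, which the heart depends on when it burns glucose or lactate. Branched-chain amino acids are first transaminated and then committed to oxidation by the branched-chain ketoacid dehydrogenase complex, which its own kinase switches off and its own phosphatase switches on. Ketone bodies made in the liver are taken up and turned back into acetyl-CoA in heart mitochondria, where they are a ready fuel.

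The libraries held 2219685 to 3508282 counts. Levels are given as CPM, counts divided by the library total and multiplied by 1000000, scaled between libraries by trimmed mean of M-values (TMM), and libraries are always listed in the order 1, 2, 3 within a group. Control library 1 stood apart on the first principal component of log2 CPM, at -43.3, against -4.83 to 26.6 for the other libraries. The tissue carried the heart muscle transcripts its label implies: the 14 cardiomyocyte markers in the table summed to 150557 to 182595 CPM in control and 140936 to 155876 CPM in doxorubicin libraries. Of 8 skeletal muscle markers 0 had enough reads for testing, and of 5 adipocyte markers with a row only Cfd was tested, at 18 to 51 counts (log2 fold change 0.63). The adipocyte gene Cidec and the red cell precursor gene Alas2 were listed at 0, as was Idh3g, which most cells use, so no absence is read from those zeros. Macrophage markers summed to 291 to 324 CPM in control and 350 to 583 CPM in doxorubicin libraries, with 12 of 13 above control. Red cell markers summed to 2040 to 7434 CPM in control, where library 1 was the highest, and 701 to 2735 CPM in doxorubicin libraries. The part of these cell types in the results that follow was not tested. In whole tissue, fewer cells of a type and less RNA per cell cannot be told apart.

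Most members lay a little below control after doxorubicin, though only 8 of the 16 tested branched-chain genes did. No single member passed the test across all genes. Of the 34 tested members, 25 (73.5%) had a log2 fold change under 0, against 47.9% of all 9205 symbols tested. Their median log2 fold change was -0.19, against 0.02 for all tested symbols. All 3 doxorubicin values lay below all 3 control values for 9 members, which is 26.5% of them, against 7.06% of all tested symbols. These 9 were Idh2, Sucla2, Mdh2, Bckdhb, Bckdk, Ivd, Mccc2, Auh and Glud1. Doxorubicin values lay wholly above control for 0 members, against 6.39% of all tested symbols. The 14 tested cardiomyocyte markers were close to the members in share below control (71.4%) and in median log2 fold change (-0.18). Of these markers, 28.6% lay wholly below control and 7.14% wholly above. They were unlike the members in spread, with log2 fold changes from -1.62 to 2.18, against -0.58 to 1.02. An unadjusted p under 0.05 in edgeR was found for 42.9% of the markers and 11.8% of the members. When libraries were scaled by their totals alone the groups lay apart, treated below control, for 3 members, Idh2, Mdh2 and Bckdk, against 5.06% of all tested symbols.

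By edgeR's quasi-likelihood test with Benjamini-Hochberg adjustment over all tested symbols, 0 of the 34 members had an adjusted p under 0.05, against 0.0543% of all symbols (5 of 9205). DESeq2 also called 0 members, against 74 of all symbols. At an unadjusted p under 0.05 there were 4 members, 11.8% against 8.1% of all symbols. Of these, 3 were lower (Bcat2, Bckdhb and Bckdk), against 4.11% of all symbols, and 1 was higher (Ppm1k), against 4%. The 4 were picked by that p alone, and their share was not far from that of all symbols, so no pathway result is read from it. These 4 act at the first steps of branched-chain amino acid breakdown. Bckdha and Dbt act there too, at unadjusted p of 0.16 and 0.745 in edgeR. DESeq2 gave 5 at an unadjusted p under 0.05, the same 4 members and Idh2, which was lower. In that fit, which kept every symbol with reads, 723 of 13050 symbols had such a p. The smallest adjusted p among members was 0.383, for Bckdk. Without doxorubicin library 3 only 1 member had an unadjusted p under 0.05 in edgeR, against 602 of 9384 symbols. Without control library 3 there were 2, against 636 of 9404.

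**Figure D1:**
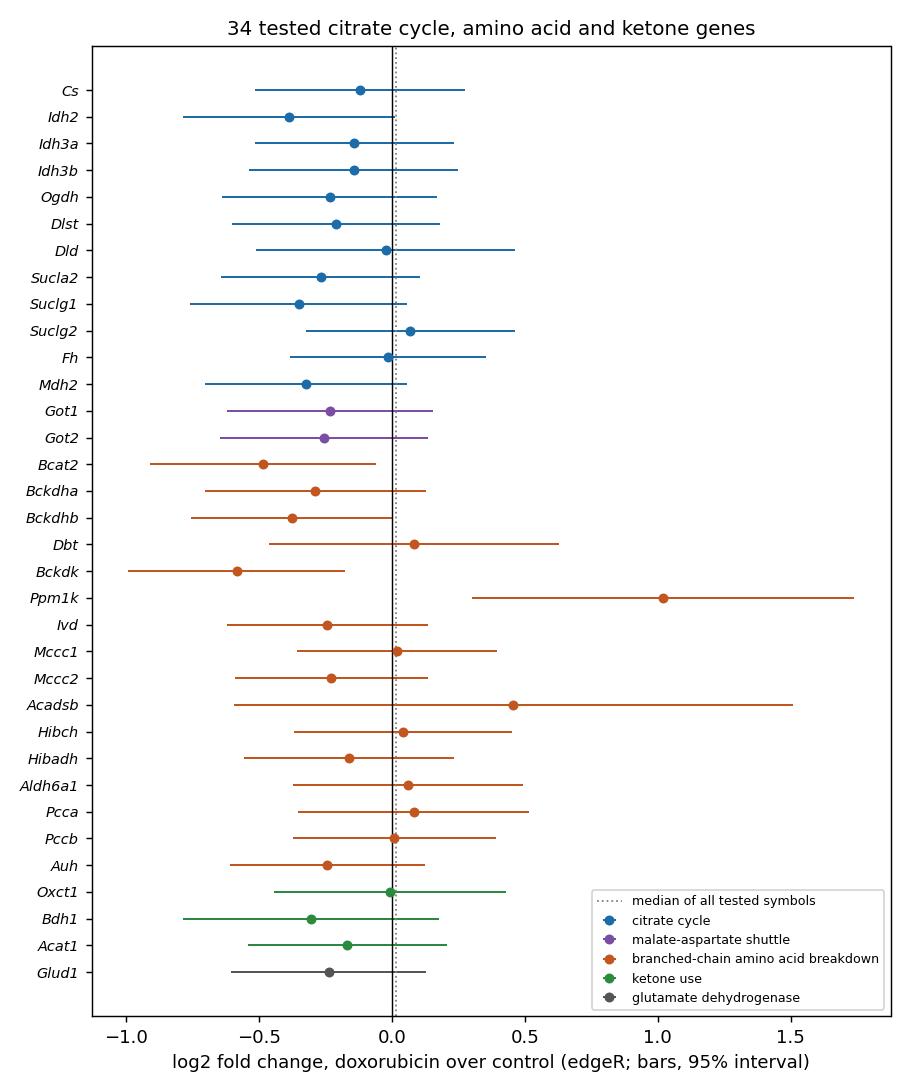
Log2 fold change (x axis, doxorubicin over control, edgeR) of each of the 34 tested members (y axis), coloured by pathway, with bars for the 95% interval. Most points lie left of 0, and the intervals of Bckdk, Bcat2 and Ppm1k lie clear of it, with that of Bckdhb ending at it.

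Reference sequence upstream of the start was looked at for what the members share beyond function. Upstream sequence from RefSeq (build GRCr8) was at hand for 33 of the 38 symbols, and none was used for Bckdha, Idh3a, Mccc2, Mut and Ppm1k. In the 250 bases before the start, the GC box GGGCGG, read on both strands, was present for 23 of 33 members (69.7%), against 32.4% of 27457 annotated starts. The CCAAT motif was present for 17 (51.5%), against 34.3%, and TATAAA for 1 (3.03%), the Dld gene, against 13.1%. The motif letters AAGGTCA, the half-site of estrogen-related receptors, were found in 0 of the 33 windows and in 3.77% of all. GCATGCGC, the core of the NRF1 site, was found for Pccb and Glud1 (6.06%, against 2.38%). These are matches of letters in a short window and were not tested against a comparable set of genes. The upstream sequences of 4 of the members whose groups did not overlap are shown 5′ to 3′ on the gene's strand, with GC boxes of either orientation in capitals. Idh2 (chr1:143467249-143467498, minus strand) holds 3 of them, Mdh2 (chr12:26543842-26544091, minus strand) 1, Bckdhb (chr8:93725027-93725276, plus strand) 2 and Bckdk (chr1:191945559-191945808, plus strand) 1, all coordinates in GRCr8.
Idh2: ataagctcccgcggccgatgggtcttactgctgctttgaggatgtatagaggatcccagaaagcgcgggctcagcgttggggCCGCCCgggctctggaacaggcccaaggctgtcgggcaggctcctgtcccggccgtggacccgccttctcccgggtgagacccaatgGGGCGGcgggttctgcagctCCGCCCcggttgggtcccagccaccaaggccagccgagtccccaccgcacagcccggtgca
Mdh2: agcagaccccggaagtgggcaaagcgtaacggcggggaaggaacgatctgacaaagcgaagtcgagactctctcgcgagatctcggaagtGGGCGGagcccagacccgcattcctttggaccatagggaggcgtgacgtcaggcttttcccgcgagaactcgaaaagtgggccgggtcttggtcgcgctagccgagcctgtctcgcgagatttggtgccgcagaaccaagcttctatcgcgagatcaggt
Bckdhb: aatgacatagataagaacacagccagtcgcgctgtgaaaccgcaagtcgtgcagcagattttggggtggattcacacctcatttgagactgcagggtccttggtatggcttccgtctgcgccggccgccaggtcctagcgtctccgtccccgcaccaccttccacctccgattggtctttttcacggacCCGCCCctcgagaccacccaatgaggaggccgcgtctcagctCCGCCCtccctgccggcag
Bckdk: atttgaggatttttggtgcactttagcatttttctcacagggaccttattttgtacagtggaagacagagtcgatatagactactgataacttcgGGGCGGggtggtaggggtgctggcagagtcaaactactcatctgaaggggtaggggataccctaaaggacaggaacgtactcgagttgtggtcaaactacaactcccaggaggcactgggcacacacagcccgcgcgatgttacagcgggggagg

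Within the citrate cycle 11 of the 12 tested genes lay below control. Their log2 fold changes ran from -0.39 to 0.07 around a median of -0.18. None had an unadjusted p under 0.05 in edgeR. In 3 of them (25%), Idh2, Sucla2 and Mdh2, all treated hearts were below all controls, against 7.06% of all tested symbols. Leaving out control library 2 brought the median to -0.10. Cs, citrate synthase, which joins acetyl-CoA to oxaloacetate, had 855, 812 and 779 CPM in control and 636, 727 and 890.1 CPM in doxorubicin libraries. Doxorubicin library 3 was the highest of all 6, so the groups overlapped (log2 fold change -0.12, SE 0.18, 95% interval -0.51 to 0.28).

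Idh2 makes alpha-ketoglutarate and mitochondrial NADPH, which recharges antioxidant systems. Its levels were 5909, 5467 and 4742 CPM in control and 3516, 4609.8 and 4206 CPM in doxorubicin libraries, every treated heart below every control. The log2 fold change was -0.39 (SE 0.19), with an unadjusted p of 0.0571 and an adjusted p of 0.621 in edgeR. Idh3a, the catalytic subunit of the NAD-dependent isocitrate dehydrogenase, had 456, 524 and 493 CPM in control and 424, 413 and 499 CPM in doxorubicin libraries. Doxorubicin library 3 lay among the controls while libraries 1 and 2 lay below them (log2 fold change -0.14, SE 0.17). Its partner Idh3b had 806, 939.6 and 833 CPM and 906, 758 and 672 CPM, an overlap in which doxorubicin library 1 exceeded control libraries 1 and 3. The third subunit gene, Idh3g, was listed at 0 in all 6 libraries, so no level is drawn from it.

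The 2-oxoglutarate dehydrogenase complex, which makes succinyl-CoA, is built from the products of Ogdh, Dlst and Dld. Ogdh, its decarboxylase, had 1895, 1846 and 1593 CPM in control and 1287, 1457 and 1792 CPM in doxorubicin libraries. Doxorubicin libraries 1 and 2 were below all controls and library 3 was not (log2 fold change -0.23, SE 0.19). Dlst, the succinyltransferase core, had 906, 1202 and 935 CPM and 918, 841 and 871 CPM, with control library 2 well above the other 5 libraries. Dld, the dihydrolipoamide dehydrogenase that this complex shares with the pyruvate and branched-chain complexes, had the widest standard error of the 12, at 553, 858 and 650.3 CPM and 885, 534 and 608 CPM. Its log2 fold change was -0.02 (95% interval -0.51 to 0.46), and the highest and the lowest library were both treated hearts.

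Succinyl-CoA ligase pairs a common alpha subunit, Suclg1, with an ATP-forming partner, Sucla2, or a GTP-forming partner, Suclg2. Sucla2 had 731, 907 and 805 CPM in control and 699, 671 and 658 CPM in doxorubicin libraries, without overlap (log2 fold change -0.27, SE 0.17, adjusted p 0.73 in edgeR). Suclg1 had 1192, 954 and 860.2 CPM and 709, 879.6 and 770.1 CPM, and only doxorubicin library 2 reached into the control range (log2 fold change -0.35, unadjusted p 0.0865 in edgeR). Suclg2 was the 1 citrate cycle gene above control, at 254, 289.6 and 263 CPM and 252, 257 and 337 CPM, where doxorubicin library 3 alone lay above the controls. The log2 ratio of Suclg2 to Sucla2 counts within a library, which needs no scaling, was -1.53, -1.65 and -1.62 in control and -1.47, -1.38 and -0.97 in doxorubicin libraries. The groups did not overlap for that ratio, which was chosen after the values were seen and carries no test.

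Fh, fumarate hydratase, was nearly level between the groups at 483, 526 and 554 CPM and 531, 546 and 472 CPM (log2 fold change -0.01, 95% interval -0.38 to 0.35). Mdh2, the mitochondrial malate dehydrogenase that closes the cycle and also serves the shuttle, had 3313, 2716 and 2751 CPM in control and 2262, 2493 and 2270.1 CPM in doxorubicin libraries. All treated hearts were below all controls, and control library 1 was the highest (log2 fold change -0.32, SE 0.18, adjusted p 0.678 in edgeR). Without control library 1 the log2 fold change of Mdh2 was -0.22.

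**Figure D2:**
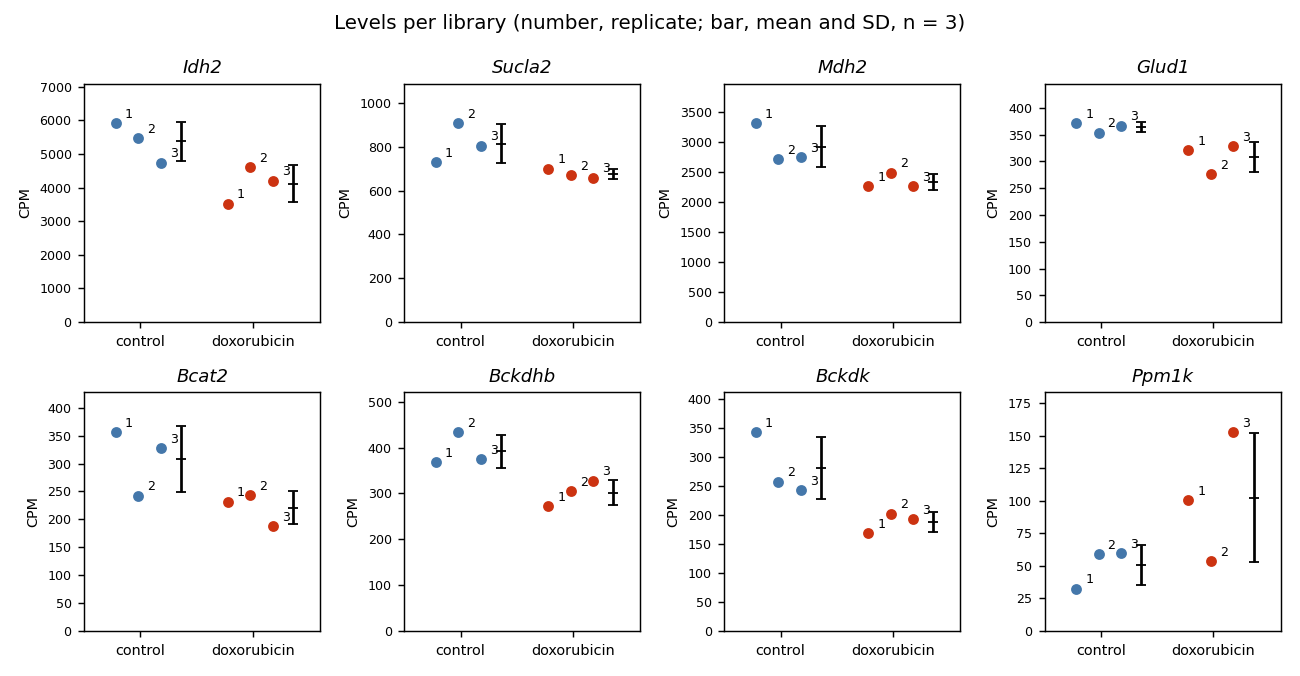
Level in CPM (y axis, from 0) of 8 members in each library, by group (x axis), with the replicate number beside each point and the mean and SD of 3 animals as a bar. Idh2, Sucla2, Mdh2, Glud1, Bckdhb and Bckdk show every treated heart below every control, Bcat2 overlaps narrowly, and Ppm1k lies above all controls in doxorubicin libraries 1 and 3 and not in library 2.

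The cytosolic and mitochondrial aspartate aminotransferases of the malate-aspartate shuttle, Got1 and Got2, had similar log2 fold changes. Got1 had 1295, 1191 and 1148 CPM in control and 878, 1067 and 1150.1 CPM in doxorubicin libraries, where library 3 matched the lowest control (log2 fold change -0.23, SE 0.18). Got2 had 2127, 1682 and 1929 CPM and 1412, 1717 and 1685 CPM, and its control library 2 lay among the treated hearts (log2 fold change -0.25, SE 0.18). Neither passed the test, with edgeR adjusted p of 0.776 and 0.756. The log2 ratio of Got1 to Got2 counts averaged -0.66 ± 0.14 over controls and -0.64 ± 0.08 over treated hearts (SD, n = 3). Mdh1, the cytosolic malate dehydrogenase, stood on 2 rows of the table and was listed at 0 on both, so the cytosolic side of the shuttle was seen only through Got1.

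The 16 tested genes of branched-chain amino acid breakdown were evenly split, 8 below and 8 above control, with a median log2 fold change of -0.08. They held both the lowest (Bckdk, -0.58) and the highest (Ppm1k, 1.02) log2 fold change of all members. In 5 of them (31.2%), Bckdhb, Bckdk, Ivd, Mccc2 and Auh, all treated hearts were below all controls, against 7.06% of all tested symbols. The direction of the median depended on the scaling: with library totals alone it was 0.01, while the median of all symbols moved to 0.10.

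Bcat2, the mitochondrial aminotransferase that takes the first step, had 356, 243 and 327 CPM in control and 232, 243 and 187 CPM in doxorubicin libraries. Control library 2 lay just below doxorubicin library 2, and the other controls were far above all treated hearts. The log2 fold change was -0.48 (SE 0.20, 0.71-fold), with an unadjusted p of 0.0278 and an adjusted p of 0.539 in edgeR. Without control library 1 it was -0.37, at an unadjusted p of 0.068 in edgeR.

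The branched-chain ketoacid dehydrogenase complex commits the carbon to oxidation. Bckdha, the alpha subunit of its decarboxylase and the target of its kinase, had 772, 509 and 601 CPM in control and 486, 561 and 495 CPM in doxorubicin libraries, with overlap through the low control library 2 (log2 fold change -0.29, SE 0.19). Without control library 1 the log2 fold change of Bckdha was -0.11. Bckdhb, the beta subunit, had 368, 434 and 374 CPM in control and 273, 305 and 328 CPM in doxorubicin libraries, without overlap. The log2 difference for Bckdhb was -0.38 (SE 0.17), with an unadjusted p of 0.04998 and an adjusted p of 0.615 in edgeR. That p was under 0.05 in 6 of the 17 alternative analyses, with log2 fold changes from -0.47 to -0.29. Dbt, the transacylase core, had 100.4, 166 and 168 CPM and 123, 124 and 215 CPM, so that its lowest library was control 1 and its highest doxorubicin 3 (log2 fold change 0.08, 95% interval -0.46 to 0.63). The estimate for Dbt thus had the opposite sign to those for Bckdha and Bckdhb, but its interval reached well to both sides of 0. The differences among the subunits were not tested.

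The transcripts of the opposing regulators of this complex lay on opposite sides of control. Bckdk, the kinase that inactivates it, had 343, 258 and 243 CPM in control and 168, 202 and 193 CPM in doxorubicin libraries. The means were 281 ± 54.0 and 188 ± 17.7 CPM (SD, n = 3), and every treated heart was below every control. The log2 fold change was -0.58 (SE 0.19, 0.67-fold), with an unadjusted p of 0.0085 and an adjusted p of 0.383 in edgeR. Bckdk kept an unadjusted p under 0.05 in all 17 alternative analyses, with log2 fold changes from -0.68 to -0.41 and adjusted p from 0.228 to 0.796.

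Ppm1k, the matrix phosphatase that reactivates the complex, had 32.5, 59.1 and 59.6 CPM in control and 100.5, 53.7 and 153 CPM in doxorubicin libraries. Doxorubicin libraries 1 and 3 were well above all controls, while library 2 lay inside the control range. The log2 fold change was 1.02 (SE 0.33, 2.03-fold, 95% interval of the log2 value 0.30 to 1.74), with an unadjusted p of 0.00911 and an adjusted p of 0.396 in edgeR. The size rested on single libraries, as did the unadjusted p. Without doxorubicin library 3 the log2 fold change was 0.62, at an unadjusted p of 0.0622 and an adjusted p of 0.788 in edgeR. Without control library 1 it was 0.79, at 0.0864 and 0.968 in edgeR. Without doxorubicin library 2 it was 1.34, at an edgeR adjusted p of 0.0604. The unadjusted p was under 0.05 in 15 of the 17 alternative analyses.

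Within each library the log2 ratio of Ppm1k to Bckdk counts was -3.40, -2.13 and -2.03 in control and -0.74, -1.92 and -0.34 in doxorubicin hearts. Treated hearts 1 and 3 were well above every control, and treated heart 2 lay next to control library 3. The log2 ratio of Bckdk to Bckdha, the kinase to its target, was -1.17, -0.98 and -1.30 in control and -1.53, -1.47 and -1.36 in doxorubicin hearts, again without overlap and with a narrow gap. These ratios were chosen after the values were seen, and they describe transcripts, not the phosphorylation of the complex.

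**Figure D3:**
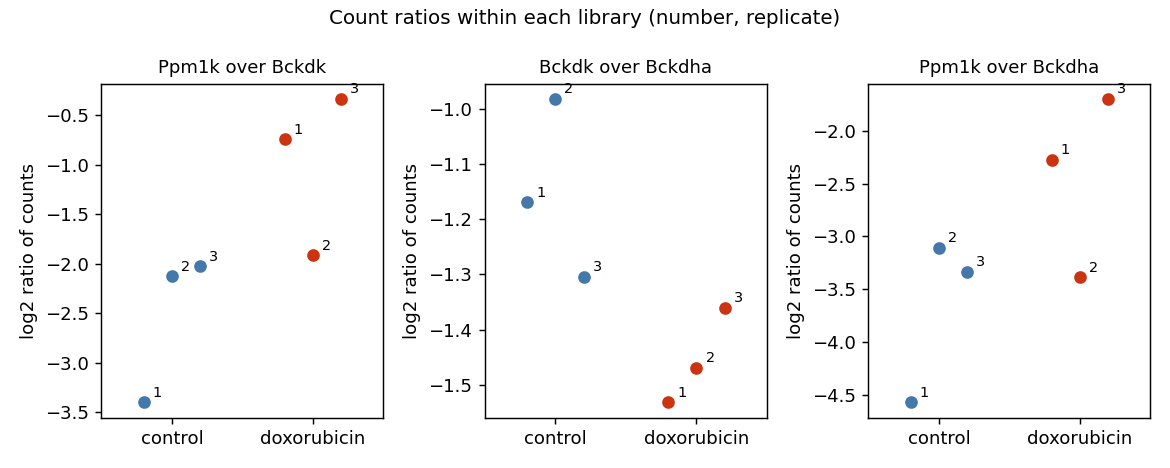
Log2 ratio of read counts within each library (y axis) by group (x axis), with replicate numbers, for Ppm1k over Bckdk, Bckdk over Bckdha and Ppm1k over Bckdha. The first ratio is -0.74 and -0.34 in doxorubicin libraries 1 and 3 but -1.92 in library 2, next to control libraries 2 and 3.

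Past the complex, each amino acid follows its own route. Ivd, isovaleryl-CoA dehydrogenase of the leucine route, had 823, 712 and 662 CPM in control and 579, 640.3 and 638 CPM in doxorubicin libraries, without overlap (log2 fold change -0.24, SE 0.18). The next leucine enzyme, methylcrotonyl-CoA carboxylase, is made of the products of Mccc1 and Mccc2. Mccc2 had 309.7, 314 and 336 CPM and 285, 283 and 252 CPM, without overlap (log2 fold change -0.23, SE 0.17), whereas Mccc1 had 139, 169 and 141 CPM and 165, 149 and 141 CPM with full overlap (log2 fold change 0.02, SE 0.17). Auh, the methylglutaconyl-CoA hydratase that follows, had 147, 153 and 137 CPM and 134, 123 and 113 CPM, without overlap (log2 fold change -0.24, SE 0.17). None of these 4 genes had an unadjusted p under 0.05 in edgeR, and the adjusted p of Ivd, Mccc2 and Auh were 0.761, 0.768 and 0.751.

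The groups overlapped for each tested member of the isoleucine and valine routes, and the routes were not compared by a test. Acadsb, the short branched-chain acyl-CoA dehydrogenase of the isoleucine route, had 44, 62 and 65 counts in control and 56, 39 and 187 counts in doxorubicin libraries. Doxorubicin library 3 alone lay above the controls, and the log2 fold change was 0.46 (SE 0.48). For the valine route, Hibch, Hibadh and Aldh6a1 had log2 fold changes of 0.04, -0.16 and 0.06, and their groups overlapped. Aldh6a1, methylmalonate semialdehyde dehydrogenase, had 776, 958 and 1001 CPM and 820.1, 839 and 1192 CPM, highest in doxorubicin library 3. Pcca and Pccb, the subunits of propionyl-CoA carboxylase on which isoleucine and valine carbon converge, had log2 fold changes of 0.08 and 0.01 (95% intervals -0.35 to 0.52 and -0.37 to 0.39). Acad8, isobutyryl-CoA dehydrogenase, and Mut, methylmalonyl-CoA mutase, were not analysed here.

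Of the ketone-using enzymes, all 3 had a log2 fold change under 0, none with an unadjusted p under 0.05 in edgeR and all with overlapping groups. Bdh1, which oxidises beta-hydroxybutyrate, had 76.4, 111 and 82.6 CPM in control and 57.1, 94.2 and 66.6 CPM in doxorubicin libraries, on 178 to 302 counts. Doxorubicin libraries 1 and 3 were below all controls and library 2 was above controls 1 and 3 (log2 fold change -0.30, 95% interval -0.78 to 0.18). Oxct1, the transferase that activates acetoacetate and that liver lacks, had 1694, 2625 and 2522 CPM and 2094, 2192 and 2531 CPM, with control library 1 the lowest of the 6. Its log2 fold change was -0.01 (95% interval -0.44 to 0.43), and its sign changed in 7 of 17 alternative analyses. Acat1, the mitochondrial thiolase that splits acetoacetyl-CoA and also ends the isoleucine route, had 1007, 1198 and 1073 CPM and 1024, 905 and 992 CPM (log2 fold change -0.17, SE 0.17). Glud1, glutamate dehydrogenase, which returns glutamate carbon to the cycle, had 371, 354 and 367 CPM in control and 321, 277 and 328 CPM in doxorubicin libraries. The treated hearts were all below the tightly grouped controls (log2 fold change -0.24, SE 0.17, adjusted p 0.756 in edgeR).

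The treated hearts were not alike across the 34 members. In doxorubicin libraries 1, 2 and 3, 19, 19 and 18 members lay below all controls, against 27.1%, 22.3% and 29% of all tested symbols. Members above all controls numbered 2, 0 and 6, against 27.5%, 23% and 28.7% of all tested symbols. The 2 in doxorubicin library 1 were Dld and Ppm1k. The 6 in doxorubicin library 3 were Cs, Suclg2, Dbt, Ppm1k, Acadsb and Aldh6a1. Control libraries 1 and 2 held the highest value for 12 and 13 members, and control library 1 also held the lowest for 7, Dbt, Ppm1k, Mccc1, Hibch, Aldh6a1, Pcca and Oxct1. Across all tested genes, the deviation of a library from the mean of the 6 followed gene span with Spearman's rho of -0.37 in control library 1 and 0.30 in doxorubicin library 3, against -0.04 to 0.22 in the other 4. Across the 34 members the same rho was -0.34 and 0.28 for those libraries, against -0.14 to 0.24 in the other 4. Among members, control library 2 (0.24) and doxorubicin library 1 (0.20) were thus near doxorubicin library 3. These correlations are over genes of the same libraries and describe them only. With the trend on span removed, 30 of the 34 members lay below control, the median was -0.22, and 5 members had an unadjusted p under 0.05 in edgeR, 4 of them lower. In the same fit 47.4% of all symbols lay below control and 813 of 9205 had an unadjusted p under 0.05.

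**Figure D4:**
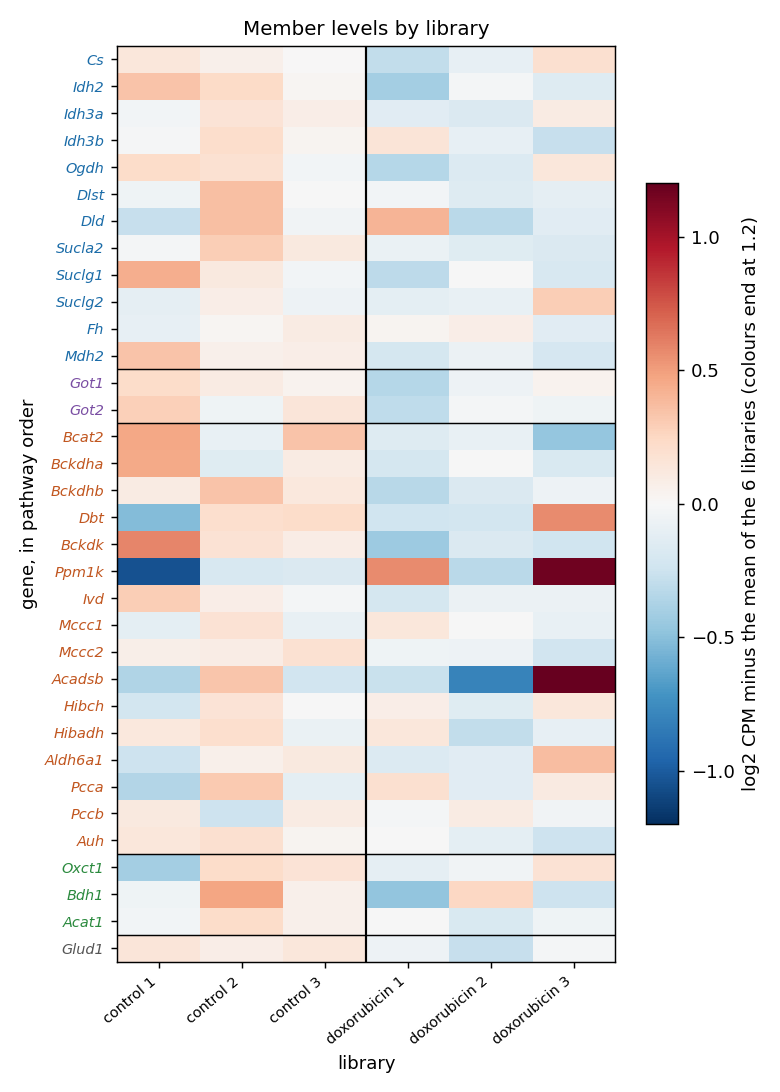
Colour gives log2 CPM minus the mean of the 6 libraries for each tested member (y axis, coloured and ruled off by pathway) in each library (x axis). Control libraries 2 and 3 are mostly red, control library 1 is mixed and doxorubicin libraries are mostly blue, with red cells in doxorubicin library 3 for Ppm1k, Acadsb, Dbt, Aldh6a1 and Suclg2.

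Other genes of these pathways, 47 symbols in 5 lists, gave 36 tested. An unadjusted p under 0.05 in edgeR was found for 9 of them (7 lower, 2 higher), 25% against 8.1% of all symbols, and 0 passed after adjustment. Among 15 other citrate cycle genes, Sdhb, the iron-sulfur subunit of succinate dehydrogenase, was lower at 1562, 1034 and 1138 CPM in control and 799, 1017 and 890.1 CPM in doxorubicin libraries (log2 fold change -0.47, SE 0.20). Without control library 1 it was -0.26, at an unadjusted p of 0.112 in edgeR. The other subunits of the same enzyme, Sdha, Sdhc and Sdhd, had log2 fold changes of 0.16, -0.21 and -0.10, with overlapping groups. The carbon-entry enzymes Pc, pyruvate carboxylase, and Me1 and Me3, malic enzymes, had log2 fold changes of -0.41, -0.42 and -0.38. All treated hearts were below all controls for Sdhb, Pc, Me1 and Me3. The groups were also apart for Mrps36, an adaptor of the 2-oxoglutarate dehydrogenase complex (log2 fold change -0.20).

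Slc25a11, the oxoglutarate carrier of the shuttle, had 1055, 821 and 792 CPM in control and 774, 766 and 852 CPM in doxorubicin libraries, with overlap (log2 fold change -0.16, SE 0.18). Slc25a22, a mitochondrial glutamate carrier outside the classical shuttle, had 101, 96.0 and 120.1 CPM in control and 71.3, 77.4 and 77.5 CPM in doxorubicin libraries, without overlap (log2 fold change -0.49, unadjusted p 0.0157, adjusted p 0.454 in edgeR). The aspartate-glutamate carriers Slc25a12 and Slc25a13 were not analysed here. On the amino acid side, Slc7a5, which imports leucine and other large neutral amino acids through the plasma membrane, had 11, 8 and 22 counts in control and 36, 29 and 41 counts in doxorubicin libraries, or 4.20, 3.55 and 6.25 against 11.6, 9.05 and 12.1 CPM. Every treated heart was above every control (log2 fold change 1.19, SE 0.37, adjusted p 0.36 in edgeR). Bcat1, the cytosolic aminotransferase, was also wholly above control, on only 7 to 20 counts per library (log2 fold change 0.75, SE 0.45). Echs1, enoyl-CoA hydratase, was wholly below control (log2 fold change -0.36), as was the alanine aminotransferase gene Gpt (-0.42, unadjusted p 0.0452 in edgeR).

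Among the other ketone genes, Slc16a1, the transporter that brings in ketone bodies and lactate, had 379, 401 and 311 CPM in control and 546, 359 and 671 CPM in doxorubicin libraries. Doxorubicin libraries 1 and 3 were above all controls and library 2 was within them, the same libraries as for Ppm1k (log2 fold change 0.53, SE 0.23, adjusted p 0.554 in edgeR).

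Set beside other fuel and energy genes of the same hearts, the members' median of -0.19 was nearer to 0 than that of 49 oxidative phosphorylation subunits (-0.41, 47 of them below control), 25 fatty acid oxidation genes (-0.25, 22 below) and 16 glycolysis genes (-0.26, 12 below). The difference between these lists was not tested. All treated hearts were below all controls for 23 of the 49 oxidative phosphorylation genes, 11 of the 25 fatty acid genes and 7 of the 16 glycolysis genes. These are 46.9%, 44% and 43.8%, beside 26.5% of the members (9 of 34) and 7.06% of all tested symbols. The glycolysis list also held 1 gene, Slc2a1, wholly above control. The mean log2 CPM of the 34 members was 8.80, 8.93 and 8.83 in control libraries and 8.68, 8.66 and 8.82 in doxorubicin libraries, so doxorubicin library 3 reached the control range. For the citrate cycle alone it was 9.91, 10.02 and 9.86 in control and 9.73, 9.73 and 9.78 in doxorubicin libraries, without overlap. For branched-chain amino acid breakdown it was 7.71, 7.85 and 7.78 in control and 7.68, 7.58 and 7.87 in doxorubicin libraries, where library 3 was the highest of all 6.

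**Figure D5:**
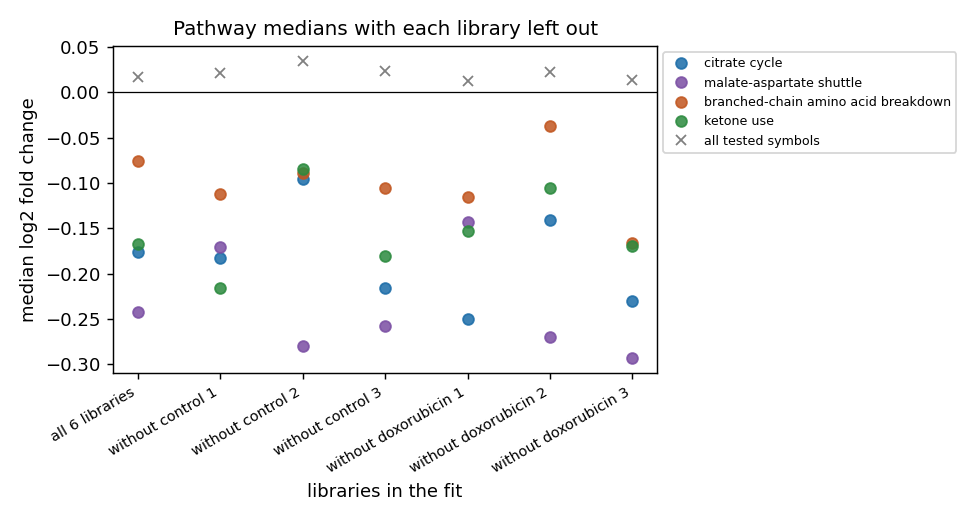
Median log2 fold change (y axis) of each pathway's tested members, and of all tested symbols (crosses), with all 6 libraries and with each library left out in turn (x axis). Each pathway median stays below 0 in these 7 fits, and the citrate cycle median comes nearest to 0 without control library 2, at -0.10.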

How the data were processed

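Heart RNA from 6 rats was compared, 3 given doxorubicin and 3 given vehicle, grouped by the sample titles. The authors deposited 1 table of raw read counts per gene row, without normalization. Per the submitters' processing notes, FastQC, Trimmomatic, STAR and HTSeq were used with the build mRatBN7.2, and per the labels' protocols the libraries were polyadenylated RNA libraries sequenced on an Illumina instrument. Counting mode, strand use and annotation were not given in the sources used here, so reads shared by similar or overlapping genes may be missing. All columns were matched to samples by library name.

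Rows were summed per symbol (599 symbols stood on several rows). Of the 36 members found, 35 stood on 1 row. The main fit was edgeR 4.0.16 (R 4.3.3): TMM factors, filterByExpr (minimum count 10, minimum total 15), which left 9205 symbols, robust quasi-likelihood F test of treatment, and Benjamini-Hochberg adjustment at 0.05. Standard errors are the absolute log2 fold change divided by the square root of F, and intervals are at the 95% level and include the spread between animals. Log2 CPM used a prior count of 2. All comparisons of levels are between groups within a gene, since transcript lengths were not used. The fit was tested on simulated data. A level of 3 counts, taken as the floor, is 0.855 to 1.35 CPM, and covers counting error only. The rats are separate animals per the labels.

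The members and lists were chosen with earlier results of these data known. Values are given for members with an unadjusted p under 0.05 or groups that do not overlap, and for members at control points of each pathway, and the other members named were added after their values were seen. Other pathway genes are named by the same first 2 criteria or where not analysed, and some that met them are not reported here. Slc25a11 and the other succinate dehydrogenase subunits were added after their values were seen. Marker lists covered cardiomyocytes (median log2 fold change -0.18), endothelial cells (-0.15), fibroblasts (-0.02), macrophages (0.35), smooth muscle and pericytes (-0.02) and red cells (-1.07), and 1 gene each was tested for adipocytes (0.63) and lymphocytes (-0.54). Gene spans, promoters and names came from RefSeq GRCr8, with a span for 97.6% of tested symbols. Alternatives were other scalings and filters, DESeq2 1.42.0, non-robust dispersion, separate rows, a gene span correction, a replicate block and leaving out each library.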

Additional observations from a re-analysis of the deposited data

How the results depend on the processing

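The 17 alternatives were all run, and 0 members passed the adjusted threshold in any of them. Against 5 genes past the threshold over all symbols, scaling by library totals gave 0 (713 at an unadjusted p under 0.05 in edgeR), no filter 61, a mean CPM of at least 5 gave 1, DESeq2 74 and non-robust dispersion 1, and leaving out a library gave 0 to 35. Members at an unadjusted p under 0.05 numbered 1 to 4 with a library left out, against 4, beside 531 to 895 of all symbols. Members whose groups did not overlap numbered 11 to 14, against 9, while the share of all symbols rose from 7.06% to between 10.1% and 13.4% for lower and from 6.39% to between 10.5% and 13.2% for higher, since fewer libraries overlap less. Library totals alone gave 3 such members, an all-member median of -0.11, a citrate cycle median of -0.10 and a branched-chain median of 0.011, while the median of all symbols moved from 0.02 to 0.10. With a library left out the all-member median was -0.22 to -0.10 and the citrate cycle median -0.25 to -0.10. Members below control numbered 22 to 30 over all alternatives, against 25. The log2 fold change of Oxct1 reversed to 0.065 with library totals, 0.005 with the CPM filter and 0.017 with the replicate block. Leaving out a library moved it from -0.175 (without control library 1) to 0.117 (without control library 2), and it was above 0 in 4 of these 6 fits. The other members and pathway genes chosen by the stated criteria kept their direction in each alternative that tested them. The cause was not tested.

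With the replicate block 13 genes passed over all symbols, 0 of them members. In that fit 3 members had an unadjusted p under 0.05 in edgeR, against 607 of 9205 symbols. Same-numbered libraries are different animals, and their deviations from the group means correlated at -0.19 to 0.02 over 3 pairs. These are too few pairs to tell whether the numbers pair the libraries. Of the 6 libraries, 1 correlated best with its own number.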
